A study of Saccharomyces cerevisiae with 9 samples.

Results

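Replacing lysine 42 of histone H3 by glutamine (K42Q) was compared with the unchanged histone in budding yeast, Saccharomyces cerevisiae. The arrays labelled K42Q (n = 2) were set against those labelled wild-type (n = 3), which makes 5 of the 9 arrays of the series, for all 5449 S. cerevisiae genes with a named probe set, dim ones included. The other arrays, K42L (n = 2, lysine to leucine) and K42A (n = 2, lysine to alanine), served to set the K42Q values against other substitutions of the same residue. All strains were JPY12 and carried the H3 gene on a plasmid, mutated or wild-type, and no agent was added. Each array measured total RNA of its own culture, grown in rich medium to log phase. The labels call the cultures of a mutant biological replicates, and do not say whether they started from 1 clone or which chromosomal H3 genes the strain still has.

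Lysine 42 lies where the N-terminal tail of H3 leaves the core of the nucleosome, close to the DNA as it enters and exits the particle. The positive charge of a lysine there can hold the DNA backbone, and methylation of a lysine leaves that charge in place. Glutamine carries no charge, which makes it resemble a lysine that bears an acetyl group. By the title of the series, methylation of this residue represses transcription, so the comparison asks which transcripts stand at another level once the lysine is lost.

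Signals were the submitters' Affymetrix values, on a linear scale, with a trimmed mean of 150.1 on every array. They show levels relative to each array's mean and not RNA per cell. Probe sets for genes of other yeast species gave the background, whose median was 1.3 and 1.0 on the K42Q arrays and 1.3, 2.65 and 2.2 on the wild-type arrays. Wild-type replicate 1 and the K42L arrays shared the lower background of K42Q, and K42A had the higher one of wild-type replicates 2 and 3. The labels name no batch. Each result was therefore also computed against wild-type replicate 1 alone, in a fit of the arrays of lower background, with that array assumed to vary like the others. The spread in that fit comes from the K42Q and K42L pairs. It holds no variation between wild-type cultures, so a call there does not allow for it. The wild-type array of like background is a single culture, so culture and background level cannot be told apart there. H3 gene HHT2 (YNL031C) had signals of 1826 and 1759 in K42Q, against 1739, 1633 and 1683 in wild type, but the probe set cannot read a substitution and so does not check the labels.

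Many transcripts differed by a little between K42Q and wild type and fewer by a lot, and the large differences were nearly all increases. Of 5449 genes, 1566 were higher in K42Q, which is 28.7%, and 792 were lower, which is 14.5%, at an adjusted p under 0.05 (limma with Benjamini-Hochberg adjustment over all genes). Among those that differed by at least 2-fold, 362 were higher and 19 lower. The K42Q and wild-type arrays did not overlap for 1564 of the higher and 787 of the lower genes. With so few arrays a call nearly requires this, so it adds no support to the calls, here or for single genes below. The same count over all genes was not taken. Against wild-type replicate 1 alone the shares were 29.2% higher and 15.0% lower, and 1246 higher and 564 lower genes were called both ways. None of the genes called against the mean of wild type had the opposite sign against replicate 1 (0 genes). That array is part of the mean and the same K42Q arrays enter both, so this is no separate check. The counts depend on the single arrays: without K42Q replicate 1 they were 884 higher and 417 lower, without K42Q replicate 2, 1136 and 468, and without wild-type replicate 1, 1948 and 1201.

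The split between higher and lower genes depends on the scale. The median log2 change of all genes was 0.08, so increases made up 66.4% of the calls. It was -0.04 after quantile normalization, -0.03 after median centring, 0.01 after cyclic loess and 0.27 after scaling to the spike-in controls among arrays of like background. Increases then made up 43.1%, 47%, 52.7% and 86.7% of the calls, in that order. Medians of gene lists below are to be read against the 0.08 of all genes. Lists with mostly dim members, those under the 25th percentile of mean signal, are to be read against 0.46, the median of all such genes. Where a list's median turned its sign under any of these scalings, the sentence on that list says so. Spike-in scaling sets K42Q against wild-type replicate 1 only, so it changes the reference array as well as the scale. The spike-in controls were 9 bio and cre control probe sets of the array. Whether they follow the RNA input of a culture was not tested, so this scaling does not give RNA per cell either. Values after ± are standard errors of the fit (SE, n = 2 against 3).

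The genes with the weakest signals rose most. When genes were ordered by their mean log2 signal over the 9 arrays and cut into 10 bins of equal size, the median log2 change was 0.68 in the dimmest bin (545 genes, mean signal up to 40.1), 0.42 in the next and 0.26 in the third. It went on falling to -0.13 in the ninth bin and was -0.10 in the brightest. In the dimmest bin 269 genes were higher and 5 lower, while in the brightest 30 were higher and 142 lower. Without K42Q replicate 1, 146 genes of the dimmest bin were called higher, at a median of 0.59. Against wild-type replicate 1 the dimmest bin had a median of 0.77 and the brightest of -0.26. With bins set on the K42L arrays, which are not in the comparison, the dimmest bin had a median of 0.74. Quantile normalization, which forces the arrays to the same distribution, gave -0.04 for the dimmest bin, and cyclic loess, which removes trends with level, gave 0.03.

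**Figure D1:**
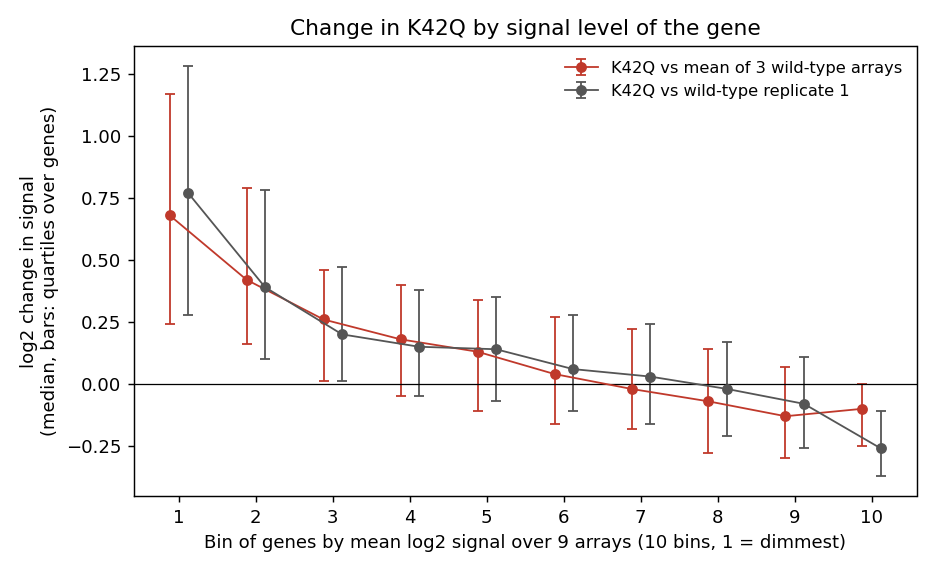
Median log2 change of K42Q in 10 bins by mean signal (x axis, 1 is the dimmest), against the mean of 3 wild-type arrays (red) and against wild-type replicate 1 alone (grey), with bars to the quartiles over genes. The median falls from 0.68 in the dimmest bin to -0.10 in the brightest against the mean of wild type.

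The shift can be read on each array. The median signal of the dimmest bin was 28.3 and 25.7 on the K42Q arrays and 13.6, 15.4 and 14.5 on the wild-type arrays, so both K42Q arrays stood above every wild-type array. It was 14.3 and 14.2 in K42L, near wild type, and 28.7 and 30.6 in K42A, near K42Q. The median of background probe sets was 1.3 and 1.0 in K42Q, and 1.3, 2.65 and 2.2 in wild type. It was 1.2 and 1.1 in K42L and 2.4 and 2.5 in K42A. Whether background has a part in the shift was not tested. Genes above the 95th percentile of their array's background numbered 5404 and 5399 in K42Q, against 5356, 5312 and 5317 in wild type. That percentile was at 5.1 and 4.4 in K42Q, against 5.0, 9.57 and 8.8 in wild type, so a gene of equal signal passes more readily in K42Q than on wild-type replicates 2 and 3. RNA came from whole cultures, so a low level in every cell and a high level in a few cells cannot be told apart.

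**Figure D2:**
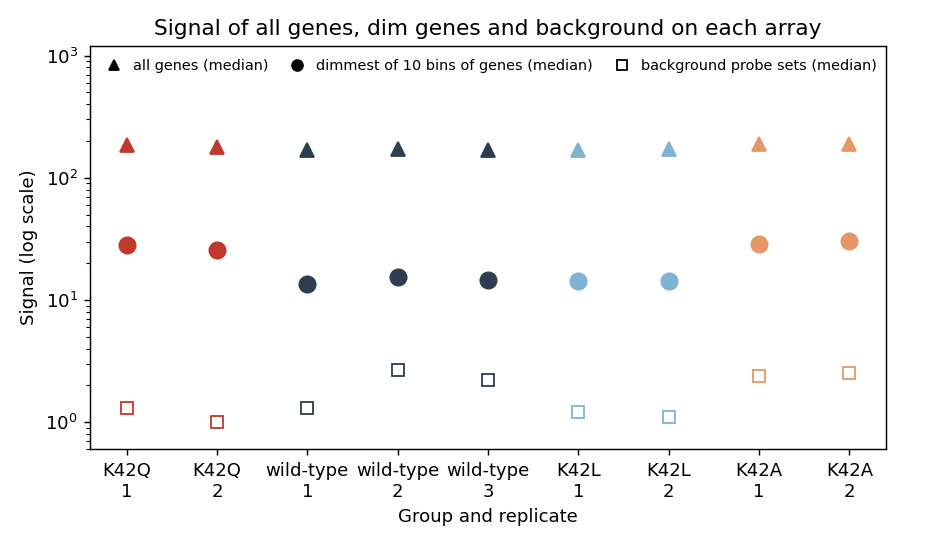
Median signal on each array (y axis, log scale) of all genes (triangles), of the dimmest bin of genes (circles) and of background probe sets (open squares), by group and replicate. The circles of K42Q stand at 28.3 and 25.7, above those of wild type at 13.6, 15.4 and 14.5. The background squares stand at 1.3 and 1.0 in K42Q and at 1.3, 2.65 and 2.2 in wild type.

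Among the 1362 genes under the 25th percentile of mean signal, called dim here, 674 were higher and 29 lower (median 0.46, and 0.44 against wild-type replicate 1, but -0.05 after quantile normalization). Among the other 4087 genes 892 were higher and 763 lower (median 0.00). Dim genes supplied 252 of the 362 genes that rose by at least 2-fold. The rise was not confined to genes of the pathways described below: 512 of 1112 dim genes in none of the 41 gene lists were higher and 22 lower (median 0.40), but after quantile normalization 166 were higher and 259 lower (median -0.10, and -0.05 after cyclic loess). Dim genes that have only a systematic name, 286 in number, had a median of 0.43, beside 0.46 for dim genes with a gene name, and after quantile normalization -0.16 and -0.03.

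The dim gene with the largest increase was SOL4 (YGR248W), for a 6-phosphogluconolactonase of the pentose phosphate pathway, with signals of 199.5 and 202 in K42Q, against 30.4, 23.9 and 24.2 in wild type. It rose by 2.95 ± 0.13 on the log2 scale, with an adjusted p of 5.36e-07 by limma. PRM2 (YIL037C), whose product is needed for nuclear fusion in mating, had 71.7 and 76.8 in K42Q, against 7.8, 9.5 and 14.1 in wild type, a rise of 2.87 ± 0.24. HSP30 (YCR021C), for a stress-induced membrane protein that holds down the plasma membrane proton pump, had 177 and 162 in K42Q, against 28.6, 27.1 and 19.6 in wild type. For all 3 genes both K42Q arrays lay far above the highest wild-type array. The rule named them for the size of their increase, so the gap adds no support. IRC15 (YPL017C) had 23.4 and 25 in K42Q, against 4.5, 7.9 and 1.4 in wild type and passed the background on no wild-type array, so its rise is given as at least 3.23-fold. RNP1 (YLL046C), for a protein with RNA recognition motifs, rose by 2.67 ± 0.17. YIL060W met the conditions for being named, but its bound was at least 1.02-fold only, and it was not called against wild-type replicate 1 (adjusted p of 0.148 by limma).

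A pair of dim genes beside the H3 gene stood out. YNL034W had 102 and 104 in K42Q, against 13.3, 17.4 and 19.6 in wild type and rose by 2.64 ± 0.19. YNL033W had 91.3 and 90.2 in K42Q, against 14.7, 9.6 and 14.7 in wild type and rose by 2.83 ± 0.19. In the order of genes of the R64 assembly, 1 gene, SIW14 (YNL032W), lies between YNL033W and HHT2. SIW14, for a phosphatase, was not called (-0.10 ± 0.13). YNL018C, which has the same length as YNL034W and may be read by the same probes, rose by 2.10 ± 0.29, so the loci cannot be told apart with certainty. In K42A the signals were 68.3 and 97 for YNL034W and 68 and 68.3 for YNL033W. In K42L they were 22.7 and 24 for YNL034W and 36.7 and 37.8 for YNL033W, between those of K42Q and wild type.

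Genes of meiosis and sporulation are silent in haploid cells that grow in rich medium, and all 56 measured ones were dim. Of these 38, or 67.9%, rose and 1 fell (median 0.96, and 0.98 against wild-type replicate 1). Their median signal of 23.5 was near the 19.8 of the dimmest bin, where 49.4% rose at a median of 0.68. The median change of the meiosis list was 0.28 after quantile normalization, with 16 higher and 4 lower. ZIP1 (YDR285W), for a protein of the synaptonemal complex, had 54.4 and 53.6 in K42Q, against 13.2, 9.7 and 8.5 in wild type and rose by 2.39 ± 0.20. SPO22 (YIL073C), which acts in meiotic crossing over, had 38.5 and 41.8 in K42Q, against 9.1, 12 and 10.1 in wild type. SPS100 (YHR139C), for a spore wall protein, had 28.9 and 27.6 in K42Q, against 4.7, 4.1 and 9.8 in wild type, and passed the background on 1 of 3 wild-type arrays. The K42Q arrays lay above all wild-type arrays for these 3 genes, at levels that stayed below those of a typical gene (the median gene had 186 and 180.1 in K42Q).

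Of the regulators of meiosis, NDT80 (YHR124W), the activator of the middle meiotic genes, rose by 1.48 ± 0.17, with 48.1 and 40.1 in K42Q, against 16.5, 16.7 and 14.1 in wild type. IME1 (YJR094C), the master activator, rose by 0.66 ± 0.13, and the kinase gene IME2 (YJL106W) by 0.86 ± 0.14. HOP1 (YIL072W), for a chromosome axis protein, rose by 1.01 ± 0.14. SMK1 (YPR054W) and SPS4 (YOR313C), late sporulation genes, were called at 0.52 and 0.70, but turned to -0.37 and -0.07 after quantile normalization. SMK1 was -0.12 after cyclic loess, and SPS4 was not called against wild-type replicate 1 (adjusted p of 0.0501 by limma). SPO11 (YHL022C), for the enzyme that makes meiotic breaks, had 40.8 and 32.3 in K42Q, against 35.2, 25.4 and 25.1 in wild type, which overlapped, and SPS1 (YDR523C) was not called either (adjusted p of 0.138 and 0.0698 by limma). SSP1 (YHR184W), needed for the prospore membrane, was the 1 member that fell, with 12.4 and 7.6 in K42Q, against 19.6, 16.3 and 16.2 in wild type. SSP1 was not called without K42Q replicate 2 (-0.48), nor without any single wild-type array.

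The culture carried the signature of a cells on every array: STE2 (YFL026W), the a-cell receptor for alpha factor, had 1175 and 1343 in K42Q, against 2088, 1809 and 1838 in wild type, while MF(ALPHA)1 (YPL187W), for alpha factor itself, had only 16.1 and 11.7 in K42Q, against 7.1, 10 and 4.8 in wild type. Of 7 genes specific to a cells 0 rose and 5 fell (median -0.46, and -0.49 against wild-type replicate 1). STE2 fell by 0.60 ± 0.10, the protease gene BAR1 (YIL015W) by 0.58 ± 0.07, the agglutinin gene AGA2 (YGL032C) by 0.50 ± 0.08, the a-factor exporter gene STE6 (YKL209C) by 0.46 ± 0.07 and the a-factor gene MFA2 (YNL145W) by 0.42 ± 0.14. MFA2 was not called without K42Q replicate 1 (-0.24). The other a-factor gene, MFA1 (YDR461W), was not called (0.20 ± 0.21), and neither was ASG7 (YJL170C) (0.14 ± 0.15).

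Of 4 genes specific to alpha cells 3 rose and 0 fell, and 3 of the 4 were dim. STE3 (YKL178C), the receptor for a-factor, had 62.7 and 59.1 in K42Q, against 29, 29.6 and 27.3 in wild type and rose by 1.09 ± 0.12. MF(ALPHA)2 (YGL089C) had 29.7 and 29.6 in K42Q, against 12.6, 19.5 and 14 in wild type. MF(ALPHA)1 rose by 0.97 ± 0.33, and against wild-type replicate 1 by 0.95 with an adjusted p of 0.0537 by limma, which does not pass. The levels stayed low, and 1 of the 4 was called higher after quantile normalization. SAG1 (YJR004C), for the alpha agglutinin, was not called (0.22 ± 0.12).

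Of 31 genes of the pheromone response 12 rose and 7 fell (median -0.08, and 0.23 after spike-in scaling). FIG1 (YBR040W), for a membrane protein of mating cells, had 135 and 127 in K42Q, against 25.1, 29 and 23.3 in wild type and rose by 2.35 ± 0.14. FUS2 (YMR232W), for a cell fusion protein, had 75.4 and 71.8 in K42Q, against 26.7, 26.4 and 23.7 in wild type and rose by 1.53 ± 0.14. Of the receptor-coupled G protein, GPA1 (YHR005C), the alpha subunit, fell by 0.83 ± 0.11, with 275 and 303 in K42Q, against 606, 466 and 478 in wild type. STE4 (YOR212W), the beta subunit, fell by 0.70 ± 0.08, with 346 and 370.5 in K42Q, against 603, 569.5 and 579.8 in wild type. STE18 (YJR086W), the gamma subunit, rose by 0.37 ± 0.11 but was not called without K42Q replicate 1 (0.24), and the kinase gene FUS3 (YBL016W) fell by 0.33 ± 0.07.

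Of the lists with over 10 measured genes, the highest median belonged to the general stress response, the set of genes that the activators Msn2 and Msn4 turn on when yeast stops growing or meets heat, starvation or oxidants. Of 56 measured genes of the list 52 rose and 0 fell, with a median of 1.64, and of 1.60 against wild-type replicate 1. After quantile normalization 50 were higher, with a median of 1.42. Those not called numbered 4, namely GPD1 (YDL022W), ALD4 (YOR374W), YGP1 (YNL160W) and SDP1 (YIL113W), whose log2 changes were 0.31, 0.46, 0.38 and 0.69. Since the list was written with earlier results of these data known, its count is a description.

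HSP26 (YBR072W), for a small heat shock protein that binds unfolded proteins, had 2260.3 and 2288 in K42Q, against 364, 441 and 444 in wild type, a rise of 2.46 ± 0.09. HSP12 (YFL014W), for a small protein that steadies membranes, had 1804 and 1699 in K42Q, against 317, 310.2 and 312 in wild type, a rise of 2.48 ± 0.11. DDR2 (YOL052C-A), a multi-stress gene, had 734 and 609.6 in K42Q, against 78.4, 117 and 95.7 in wild type. In each of these the K42Q arrays lay several-fold above the wild-type arrays. The rule named them among the largest increases, so the gap adds no support. TMA10 (YLR327C), for a ribosome-associated protein, had 646 and 473 in K42Q, against 83.8, 49.1 and 50.4 in wild type. EGO4 (YNR034W-A) had 508 and 465 in K42Q, against 68.3, 74.8 and 57.8 in wild type. MSC1 (YML128C) had 382 and 360.2 in K42Q, against 75.3, 66.6 and 64.1 in wild type. RTC3 (YHR087W) had 482 and 373 in K42Q, against 106, 84.2 and 75.3 in wild type. YMR090W, of unknown function, rose by 2.58 ± 0.11. YRO2 (YBR054W), for a membrane protein related to Hsp30, had the largest change among genes that were not dim, 3.29 ± 0.56, but its wild-type arrays disagreed. It had 536 and 642 in K42Q, against 169, 35.7 and 35.3 in wild type, and against replicate 1 the change was 1.79.

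**Figure D3:**
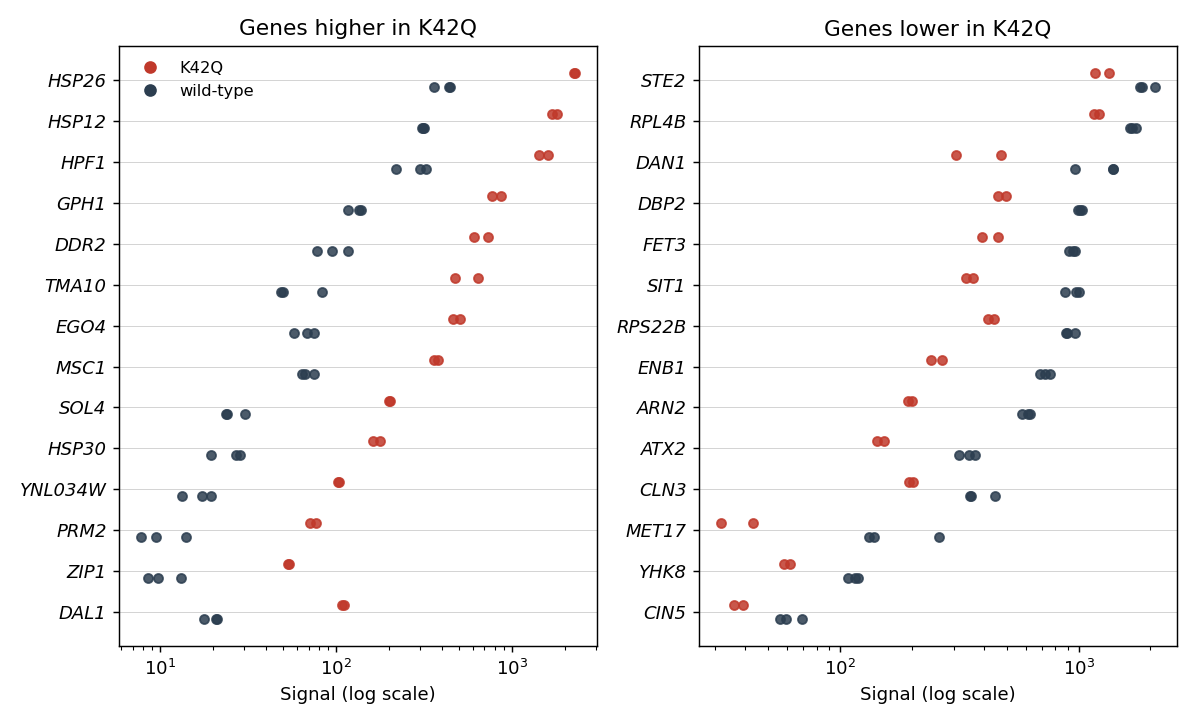
Signal on each K42Q array (red, n = 2) and wild-type array (dark, n = 3) for 14 genes that were higher (left) and 14 that were lower (right) in K42Q (x axes, log scale). For each gene shown the 2 groups do not overlap, which the rule that named genes required of most of them. HSP26 reached 2260.3 and 2288 in K42Q, against 364, 441 and 444 in wild type.

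The storage carbohydrates moved with the stress genes. Of 12 genes of glycogen metabolism 10 rose and 0 fell (median 1.20, and 1.21 against wild-type replicate 1), and 7 of the 12 were dim. GPH1 (YPR160W), for the phosphorylase that breaks glycogen down, had 772 and 867 in K42Q, against 117, 139.7 and 135 in wild type, a rise of 2.65 ± 0.10. The phosphatase-targeting subunits that turn on glycogen synthase had low levels: GAC1 (YOR178C) had 28.9 and 21.2 in K42Q, against 7.5, 6.5 and 6.9 in wild type. GIP2 (YER054C) had 46.8 and 44.4 in K42Q, against 15.2, 14.8 and 11.3 in wild type. Of 7 genes of trehalose metabolism 6 rose and 0 fell (median 1.03). TSL1 (YML100W), for a subunit of the trehalose synthase complex, had 1025 and 1062 in K42Q, against 368, 321 and 313 in wild type. Genes of breakdown rose as well, the acid trehalase gene ATH1 (YPR026W) by 1.33 ± 0.15 and the neutral trehalase gene NTH2 (YBR001C) by 1.30 ± 0.11.

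Among 32 chaperone genes 21 rose and 0 fell (median 0.40, and 0.51 against wild-type replicate 1). SSA4 (YER103W), an inducible member of the Hsp70 family, had 1767 and 1733 in K42Q, against 285, 404 and 417 in wild type, a rise of 2.27 ± 0.15. Among 32 genes of oxidant defence 20 rose and 2 fell (median 0.39). TSA2 (YDR453C), for an inducible peroxiredoxin, had 194 and 174 in K42Q, against 31.9, 58.5 and 56 in wild type. SRX1 (YKL086W), for the sulfiredoxin that repairs peroxiredoxins, rose by 1.89 ± 0.23, and GTT2 (YLL060C), for a glutathione transferase, by 1.86 ± 0.19. The 2 that fell were GSH2 (YOL049W) (-0.50 ± 0.07), for glutathione synthetase, and TRX1 (YLR043C) (-0.30 ± 0.07), for a cytosolic thioredoxin.

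In the list of DNA damage genes 10 of 23 rose and 1 fell (median 0.25). The polyubiquitin gene UBI4 (YLL039C), which heat also induces, had 1182 and 1099.6 in K42Q, against 356, 445 and 417 in wild type. RAD2 (YGR258C), for a nuclease of excision repair, rose by 0.94 ± 0.16, and HUG1 (YML058W-A), for an inhibitor of ribonucleotide reductase, had 1174 and 888 in K42Q, against 495, 566 and 573 in wild type. The 1 gene called lower was TOS2 (YGR221C) (-0.50 ± 0.14), which was not called against wild-type replicate 1 (-0.24).

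Genes for growth on carbon sources other than glucose rose, though the medium held glucose. In the list of the citric acid and glyoxylate cycles, gluconeogenesis and fatty acid oxidation 28 of 43 rose and 2 fell (median 0.74, and 0.87 against wild-type replicate 1). The median was 0.37 after quantile normalization, and 20 of the 43 were dim. PCK1 (YKR097W), for the first committed enzyme of gluconeogenesis, had 204 and 179.8 in K42Q, against 53.6, 71.6 and 70.3 in wild type, a rise of 1.57 ± 0.14. ALD3 (YMR169C), for a stress-induced aldehyde dehydrogenase, had 59.8 and 47.3 in K42Q, against 13.4, 14.6 and 14.5 in wild type. POX1 (YGL205W), for the acyl-CoA oxidase that opens peroxisomal fatty acid oxidation, had 30.9 and 29.5 in K42Q, against 7.0, 12.7 and 8.5 in wild type. For all 3 the K42Q arrays stood clear of the wild-type arrays, which adds no support, as they were named for the largest changes of the list. The 2 genes that fell, by little, were MDH2 (YOL126C) (-0.35 ± 0.09), for cytosolic malate dehydrogenase, and PYC2 (YBR218C) (-0.19 ± 0.07), for pyruvate carboxylase, and PYC2 was not called against wild-type replicate 1 (-0.18).

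Of 23 genes of hexose transport and its control 9 rose and 1 fell (median 0.45, and 0.58 against wild-type replicate 1). Of the 23, 14 were dim, and the median of all dim genes was 0.46. HXT5 (YHR096C), for a transporter of slowly growing and starved cells, had 104 and 88 in K42Q, against 16.7, 23.5 and 25.1 in wild type, a rise of 2.15 ± 0.22. HXT11 (YOL156W) had 44.7 and 34.7 in K42Q, against 10, 16.4 and 14.2 in wild type, but shares near-identical sequence with other HXT genes, so its own share of the signal is uncertain. HXT4 (YHR092C) had 648 and 836 in K42Q, against 448, 251 and 201 in wild type, where wild-type replicate 1 stood above the other wild-type arrays. The 1 gene that fell was STD1 (YOR047C) (-0.45 ± 0.07), for a regulator of glucose sensing. Of 14 genes of galactose and maltose use 11 rose and 2 fell (median 0.71, and 0.26 after quantile normalization), and 11 of the 14 were dim. IMA1 (YGR287C), for an isomaltase, had 126 and 101 in K42Q, against 28.1, 32.4 and 32.8 in wild type. MAL32 (YBR299W), for a maltase, had 120.4 and 114 in K42Q, against 28, 47.1 and 44.4 in wild type. IMA3 (YIL172C) rose by 1.55 ± 0.14. These too belong to families of near-identical copies. The regulators GAL80 (YML051W) and MAL33 (YBR297W) fell, by 0.37 ± 0.07 and 0.38 ± 0.10, and MAL33 was not called against wild-type replicate 1 (-0.35).

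Of 44 genes of the respiratory chain and its ATP synthase 19 rose and 3 fell (median 0.26, and 0.09 against wild-type replicate 1). INH1 (YDL181W), for the inhibitor of the ATP synthase, had 133 and 138 in K42Q, against 53.2, 22.4 and 19.2 in wild type. STF2 (YGR008C), for a factor that steadies that inhibitor, had 763 and 667 in K42Q, against 336, 203 and 205 in wild type. NDE2 (YDL085W), for an external NADH dehydrogenase, had 36.8 and 34.5 in K42Q, against 8.6, 12.5 and 11.1 in wild type. The 3 genes that fell were COX5A (YNL052W) (-0.32 ± 0.09), COX12 (YLR038C) (-0.25 ± 0.09) and ATP1 (YBL099W) (-0.24 ± 0.08), subunits of cytochrome oxidase and the ATP synthase. All 3 lost the call without K42Q replicate 1, COX5A at -0.21 and ATP1 at -0.13, and ATP1 also against wild-type replicate 1 (-0.26). Genes for mitochondrial ribosomal proteins moved by little but in 1 direction: 48 of 75 rose and 0 fell (median 0.30, and 0.33 against wild-type replicate 1). RSM19 (YNR037C) had 308 and 314 in K42Q, against 178, 171 and 173 in wild type. RSM7 (YJR113C) rose by 0.70 ± 0.12 and MRPL50 (YNR022C) by 0.60 ± 0.09.

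Of 33 genes of glycolysis and fermentation 9 rose and 2 fell, with a median of 0.06 that was -0.06 after median centring and -0.15 against wild-type replicate 1. The share that rose, 27.3%, was near the 28.7% of all genes. TDH1 (YJL052W), for the stress-induced form of glyceraldehyde phosphate dehydrogenase, had 2074 and 2109.6 in K42Q, against 798, 868 and 826 in wild type. HXK1 (YFR053C), for the hexokinase used outside high glucose, had 1620.1 and 1696 in K42Q, against 546, 679.8 and 687 in wild type. GPM2 (YDL021W), for a homologue of phosphoglycerate mutase, rose by 1.42 ± 0.25. The 2 that fell were GPD2 (YOL059W) (-1.03 ± 0.22), for a glycerol phosphate dehydrogenase, and PFK27 (YOL136C) (-0.32 ± 0.07), for a kinase that makes a glycolytic signal.

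Genes of self-digestion rose, but the autophagy genes by no more than dim genes at large (median 0.46). Of 32 autophagy genes 21 rose and 0 fell (median 0.45, and 0.46 against wild-type replicate 1), and 18 of them were dim. After quantile normalization 7 were higher and 1 lower (median 0.10). ATG39 (YLR312C), for a receptor in autophagy of the nucleus, had 33.7 and 29.8 in K42Q, against 13.2, 15.2 and 13.6 in wild type. ATG9 (YDL149W), for the membrane protein that seeds autophagosomes, had 100.2 and 77.6 in K42Q, against 44.3, 39 and 43.7 in wild type. ATG23 (YLR431C) had 57.6 and 54.4 in K42Q, against 38.8, 22.5 and 18.3 in wild type. Of 11 genes of vacuolar proteolysis 8 rose and 0 fell (median 0.36). Protease genes and their inhibitors rose together: PRB1 (YEL060C), for proteinase B, had 951 and 947 in K42Q, against 501, 639 and 677 in wild type. Its inhibitor gene PBI2 (YNL015W) had 477 and 441 in K42Q, against 224, 243 and 234 in wild type. PAI3 (YMR174C), for the inhibitor of proteinase A, had 38.2 and 29.5 in K42Q, against 6.7, 11.7 and 7.2 in wild type.

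Of 36 proteasome genes 2 rose and 6 fell, with a median of -0.10 that was 0.02 after cyclic loess and 0.16 after spike-in scaling. The 2 that rose were SEM1 (YDR363W-A) (0.44 ± 0.10) and ECM29 (YHL030W) (0.24 ± 0.08), and RPN13 (YLR421C), for a ubiquitin receptor, fell by 0.35 ± 0.06. RPT5 (YOR117W), for an ATPase of the base, fell by 0.27 ± 0.08, and was not called against wild-type replicate 1 (-0.11).

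In the nitrogen list 15 of 36 rose and 11 fell, with a median of 0.22 that was -0.02 after quantile normalization. The genes with the largest changes serve poor nitrogen sources. DAL1 (YIR027C), for the allantoinase that opens allantoin breakdown, had 111 and 109 in K42Q, against 20.8, 21.2 and 17.9 in wild type, a rise of 2.47 ± 0.12. DAL4 (YIR028W), for the allantoin permease, had 91.6 and 83.3 in K42Q, against 19.7, 29.9 and 29.5 in wild type. DUR3 (YHL016C), for a urea transporter, had 108 and 97.1 in K42Q, against 34.1, 34.6 and 42 in wild type. Transporters for amino acids of rich medium were among those that fell: BAP2 (YBR068C) fell by 0.57 ± 0.08, TAT1 (YBR069C) by 0.47 ± 0.09 and GNP1 (YDR508C) by 0.63 ± 0.08.

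The activator Aft1 turns on genes of iron uptake when iron is short, and their products bring in siderophores, the iron carriers of other microbes, or reduce and oxidise free iron at the cell surface. Of 13 genes of siderophore uptake 2 rose and 8 fell (median -0.49, and -0.55 against wild-type replicate 1). The siderophore transporter genes fell most: ARN2 (YHL047C) had 200.1 and 192 in K42Q, against 612, 576 and 627 in wild type, a change of -1.63 ± 0.11. ENB1 (YOL158C) had 268 and 240.0 in K42Q, against 757, 722 and 687 in wild type. SIT1 (YEL065W) had 359 and 336 in K42Q, against 877, 978 and 1003 in wild type. For all 3 the wild-type arrays lay close together and both K42Q arrays far below them. These genes were named for the largest changes of the list, so the gap adds no support. FIT1 (YDR534C), for a cell wall protein that holds siderophores, had 53.5 and 54.3 in K42Q, against 71, 118 and 95.4 in wild type, and was not called against wild-type replicate 1 (adjusted p of 0.0577 by limma). The 2 that rose were the reductase genes FRE1 (YLR214W) (0.98 ± 0.19) and FRE2 (YKL220C) (0.86 ± 0.14).

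In the list of iron and copper transport 8 of 28 rose and 10 fell (median -0.08, and -0.22 against wild-type replicate 1). The share that rose, 28.6%, was near the 28.7% of all genes, and 35.7% fell, against 14.5%. FET3 (YMR058W), for the multicopper oxidase of high-affinity iron uptake, had 394 and 459.5 in K42Q, against 963, 909.8 and 943 in wild type, a change of -1.14 ± 0.10. The copper transporter genes went the other way, but by an amount that depends on the wild-type array. CTR3 (YLR411W) had 964 and 1010.4 in K42Q, against 536, 59.1 and 77.8 in wild type. CTR1 (YPR124W) had 679.7 and 682 in K42Q, against 359, 128 and 133 in wild type. Against wild-type replicate 1 the changes were 0.88 and 0.92, against 2.87 ± 0.79 and 1.89 ± 0.38 with all wild-type arrays. CTR3 was not called when either K42Q array was left out. ATX2 (YOR079C), for a manganese transporter of the Golgi, had 153 and 142 in K42Q, against 316, 346 and 366 in wild type and fell by 1.21 ± 0.09, and YLR126C had 70.4 and 64.8 in K42Q, against 158, 184 and 174 in wild type.

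Genes of phosphate supply and of purine synthesis differed between the wild-type cultures themselves. PHO84 (YML123C), for the high-affinity phosphate transporter, had 689.9 and 655 in K42Q, against 41.6, 756 and 852 in wild type. It was 4.01 log2 higher than wild-type replicate 1, yet not called against the mean of wild type (1.17 ± 1.03, adjusted p of 0.385 by limma). Of 24 genes of phosphate supply 5 rose and 5 fell (median 0.13), and against wild-type replicate 1, 11 were higher and 4 lower. PHO89 (YBR296C), for the sodium-coupled phosphate transporter, had 86.5 and 81.4 in K42Q, against 3.6, 35.2 and 30.7 in wild type. SPL2 (YHR136C), for a regulator of low-affinity phosphate uptake, had 32.2 and 28.2 in K42Q, against 5.0, 9.5 and 13.4 in wild type. PHM6 (YDR281C) had 7.0 and 4.3 in K42Q, against 13.9, 10.9 and 19.9 in wild type. PHO89 and SPL2 were higher than every wild-type array and PHM6 lower than every one. PHO89 was at 2.42, at 1.35 without wild-type replicate 1, and not called when either K42Q array was left out.

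Of 24 genes of purine synthesis and one-carbon metabolism 3 rose and 6 fell, with a median of 0.00, but 12 fell against wild-type replicate 1 (median -0.30) and 12 rose against replicates 2 and 3 (median 0.24). The 3 that rose were GCV1 (YDR019C) and GCV2 (YMR189W), for subunits of the glycine cleavage system, and MTD1 (YKR080W), for a folate dehydrogenase. GCV1 had 301 and 413 in K42Q, against 158, 59.2 and 48 in wild type. MTD1 had 620.4 and 733 in K42Q, against 441, 236 and 217 in wild type. K42Q was the higher group on every array of these genes.

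Of 66 genes of amino acid synthesis 4 rose and 22 fell (median -0.15), and 39 fell against wild-type replicate 1 (median -0.35). HIS3 (YOR202W), for an enzyme of histidine synthesis and a common selection marker, had 1852 and 326 in K42Q, against 3171, 2872 and 2938 in wild type. Its log2 change was -1.94 ± 0.53, but -0.69 without K42Q replicate 2. ARO9 (YHR137W) and ARO10 (YDR380W), which break aromatic amino acids down, rose instead. ARO9 had 101 and 83.2 in K42Q, against 27.9, 36.7 and 40.6 in wild type. ARO10 had 85.9 and 82.7 in K42Q, against 17.1, 37.1 and 40.2 in wild type. The other 2 that rose were GDH3 (YAL062W) (1.06 ± 0.16) and ARG2 (YJL071W) (0.85 ± 0.11).

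In the sulphur list 12 of 32 rose and 3 fell (median 0.18). MET17 (YLR303W), for the sulfhydrylase that makes homocysteine, had the largest fall among dim genes, with 43.1 and 31.6 in K42Q, against 260.4, 138 and 132 in wild type, a change of -2.19 ± 0.28. Its wild-type signals lie above the dim cut of 87.0, and it counts as dim by its mean over all 9 arrays. It had 75.6 and 78 in K42L and 50.1 and 69.9 in K42A. STR3 (YGL184C), for cystathionine beta-lyase, had 240.2 and 192 in K42Q, against 59.9, 60.4 and 56.8 in wild type. SUL1 (YBR294W), for a sulphate transporter, had 37.7 and 42.8 in K42Q, against 8.1, 12.9 and 13.2 in wild type. The others that fell were SAM1 (YLR180W) (-0.41 ± 0.11) and SAM4 (YPL273W) (-0.91 ± 0.08), both of methionine and S-adenosylmethionine metabolism. For vitamins and cofactors, 15 of 25 genes for thiamine, vitamin B6 and NAD rose and 4 fell (median 0.53). SNO1 (YMR095C) and SNZ1 (YMR096W), neighbouring genes for vitamin B6 synthesis, rose together. SNO1 had 39.1 and 35.9 in K42Q, against 8.5, 8.5 and 6.2 in wild type. SNZ1 had 372 and 371 in K42Q, against 125, 165 and 178 in wild type.

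Of 129 genes for cytosolic ribosomal proteins 1 rose and 12 fell, with a median of -0.09 that was 0.03 after cyclic loess. Against wild-type replicate 1, 43 fell (median -0.28). RPS22B (YLR367W) stood apart from the rest, with 444 and 416 in K42Q, against 968, 885 and 897 in wild type, a change of -1.09 ± 0.09. RPS9A (YPL081W) had 343 and 308 in K42Q, against 452, 518 and 499.9 in wild type. RPL4B (YDR012W) had 1219 and 1164 in K42Q, against 1739.6, 1638 and 1676 in wild type. The 1 gene called higher was RPL15B (YMR121C) (0.33 ± 0.10), which was not called against wild-type replicate 1 (0.16). Most ribosomal protein genes have a near-identical copy, and the arrays may not tell the copies apart.

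Of 132 genes of ribosome biogenesis 4 rose and 47 fell, with a median of -0.17 that was 0.16 after spike-in scaling. Against wild-type replicate 1, 15 rose and 35 fell (median -0.02), so the size of the shift depends on the wild-type array. DBP2 (YNL112W), for an RNA helicase, had 496 and 460.0 in K42Q, against 994, 1031 and 1010.3 in wild type, a change of -1.08 ± 0.07. TIF6 (YPR016C), which keeps the large subunit inactive until it is mature, had 563 and 585 in K42Q, against 839.5, 906 and 913 in wild type. RRP8 (YDR083W), for a methyltransferase of ribosomal RNA, had 172 and 178 in K42Q, against 234, 260.5 and 276 in wild type. Of 31 subunits of the RNA polymerases 0 rose and 9 fell, with a median of -0.14 that was 0.06 after spike-in scaling. RPC31 (YNL151C), of polymerase III, fell by 0.49 ± 0.09.

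**Figure D4:**
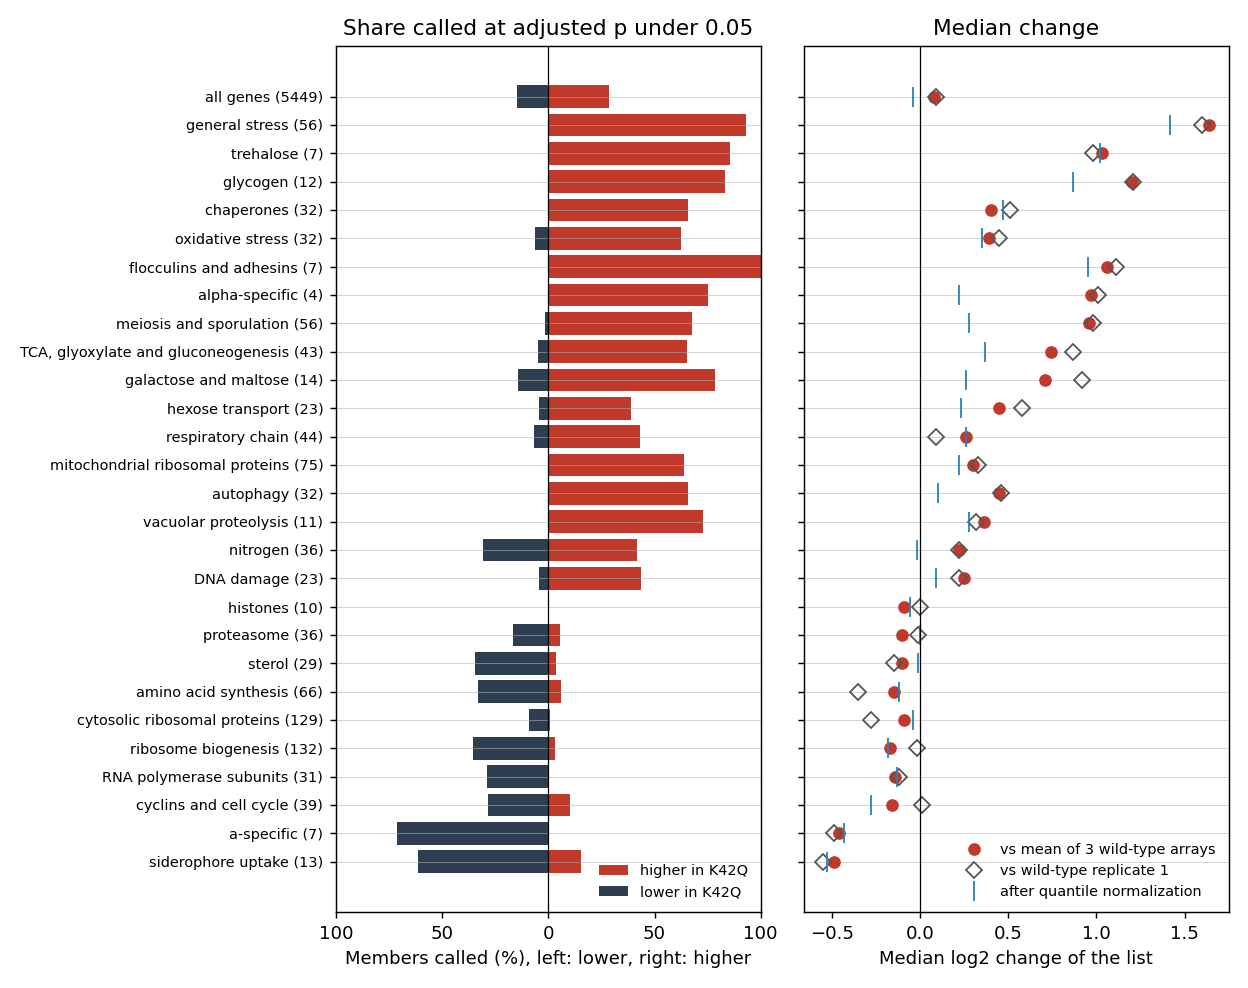
Share of the members of each gene list that were higher (red, to the right) or lower (dark, to the left) in K42Q, with the number of measured members in brackets, and on the right the median log2 change against the mean of wild type (circles), against wild-type replicate 1 (diamonds) and after quantile normalization (bars). All genes had 28.7% higher and 14.5% lower, with a median of 0.08, and the general stress list had a median of 1.64.

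Of 39 cell cycle genes 4 rose and 11 fell, with a median of -0.16 that was 0.18 after spike-in scaling. CLN3 (YAL040C), for the cyclin that starts the cell cycle, had 194 and 203 in K42Q, against 444, 349.7 and 354 in wild type, a change of -0.94 ± 0.10. The mitotic cyclin genes CLB1 (YGR108W) and CLB2 (YPR119W) fell by 0.74 ± 0.18 and 0.63 ± 0.14. The 4 that rose were CTS1 (YLR286C), MBP1 (YDL056W), FKH2 (YNL068C) and WHI5 (YOR083W), of which CTS1, for the chitinase that parts mother and daughter, had 395 and 465 in K42Q, against 144, 312 and 307 in wild type. CTS1 was at 0.84, at 0.47 without wild-type replicate 1, and not called when either K42Q array was left out. WHI5, for the repressor that Cln3 inactivates, was at 0.28 ± 0.09, but was not called against wild-type replicate 1 (0.25) and turned to -0.13 after quantile normalization and -0.08 after cyclic loess. Of 29 sterol genes 1 rose and 10 fell, with a median of -0.10 that was 0.02 after cyclic loess and 0.03 after spike-in scaling. Of 26 phospholipid genes 3 rose and 9 fell, with a median of -0.11 that was 0.04 after spike-in scaling. HES1 (YOR237W), for an oxysterol-binding protein, was the sterol gene that rose, with 103 and 88.3 in K42Q, against 25.4, 42.7 and 51.6 in wild type.

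All 7 genes of the list of flocculins and adhesins, which includes an activator gene, rose (median 1.06, and 1.11 against wild-type replicate 1, where 6 passed). FLO8 (YER109C), for an activator of the flocculins, had 281 and 236 in K42Q, against 101, 86.9 and 86 in wild type. FLO11 (YIR019C), for the adhesin of invasive growth, had 181 and 151 in K42Q, against 60.8, 70 and 79.1 in wild type. FIG2 (YCR089W), for an adhesin of mating cells, had 338 and 388 in K42Q, against 136, 176 and 182 in wild type. HPF1 (YOL155C), for a mannoprotein of the cell wall, rose by 2.45 ± 0.15, with 1434 and 1617 in K42Q, against 221, 326 and 303 in wild type. SPI1 (YER150W), for a wall protein of stationary cells, had 594 and 559 in K42Q, against 160.5, 183 and 159 in wild type. DAN1 (YJR150C), for a wall mannoprotein of cells without oxygen, had the opposite change, with 474 and 306 in K42Q, against 962, 1393 and 1401 in wild type, a change of -1.70 ± 0.19. In its family 5 of 19 PAU, DAN and TIR genes rose and 3 fell, with a median of 0.10 that was -0.01 after median centring. These shares, 26.3% and 15.8%, were near the 28.7% and 14.5% of all genes. PAU21 (YOR394W) rose by 1.22 ± 0.30 and TIR4 (YOR009W) fell by 0.67 ± 0.19, but TIR4 was not called against wild-type replicate 1 (-0.19). Of 30 other cell wall genes 5 rose and 2 fell, with a median of -0.02. It was 0.02 after quantile normalization, 0.07 after cyclic loess and 0.03 after spike-in scaling.

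Close to chromosome ends, nucleosomes and the Sir proteins keep genes silent. The 10 genes nearest each end (235 measured) had 107 higher and 23 lower, with a median of 0.32 (0.40 against wild-type replicate 1), and the other distances had medians of 0.07 to 0.09. Signal level moved with this: 66 of the 235 were in the dimmest bin. Within the dimmest bin the outermost genes had a median of 0.57 and the others 0.69. From the fourth bin up the medians were 0.10 near the ends and -0.02 elsewhere, and after median centring -0.01 and -0.13. Of 14 genes of the COS, helicase and AAD families 5 rose and 3 fell (median 0.14). AAD6 (YFL056C) and AAD10 (YJR155W), for likely aryl alcohol dehydrogenases, rose. AAD6 had 90.7 and 75.3 in K42Q, against 30.3, 31.3 and 25 in wild type. AAD10 had 139 and 133 in K42Q, against 50.1, 60.8 and 50.2 in wild type. COS8 (YHL048W) fell by 0.97 ± 0.16. Chromosome medians ran from 0.04 to 0.19, with the highest on chromosome X.

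Of 10 measured histone genes 0 rose and 0 fell, by limma, with a median of -0.09 that was 0.18 after spike-in scaling. At an unadjusted p under 0.05, 2 of them differed. HTA1 (YDR225W), for H2A, was nearest, with 1610.1 and 1749 in K42Q, against 2007, 1870.4 and 1941 in wild type (adjusted p of 0.0519 by limma). HHT2 was at 0.09 ± 0.08 and HHF1 (YBR009C), for H4, at -0.10 ± 0.07. HHT1 (YBR010W), the other H3 gene, lay near background, with 2.0 and 0.3 in K42Q, against 1.0, 13.1 and 4.3 in wild type.

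Of 22 genes for histone chaperones and regulators of histone genes 7 rose and 3 fell (median 0.12). These shares, 31.8% and 13.6%, were near the 28.7% and 14.5% of all genes. SPT10 (YJL127C), for an activator of histone genes, had 85.2 and 73.1 in K42Q, against 56.8, 44 and 42.7 in wild type. The HIR corepressor, which holds histone genes down, was split: HIR1 (YBL008W) rose by 0.57 ± 0.13 and HPC2 (YBR215W) by 0.52 ± 0.09, while HIR2 (YOR038C) fell by 0.28 ± 0.07. Of 51 histone-modifying enzymes 13 rose and 7 fell, with a median of 0.10 that was -0.11 after quantile normalization, -0.02 after median centring and -0.05 after cyclic loess. Their shares, 25.5% and 13.7%, were also near those of all genes. SET4 (YJL105W), for a SET domain protein, had 19.9 and 11.6 in K42Q, against 7.0, 4.5 and 4.5 in wild type. HOS4 (YIL112W), for a subunit of the Set3 deacetylase complex, rose by 0.74 ± 0.16. GCN5 (YGR252W), for the acetyltransferase of SAGA, fell by 0.36 ± 0.09.

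In the silencing list 5 of 13 rose and 2 fell, with a median of 0.23 that was -0.29 after quantile normalization and -0.28 after cyclic loess. The deacetylase gene SIR2 (YDL042C) and the general regulator gene RAP1 (YNL216W) fell by 0.39 ± 0.08 and 0.42 ± 0.08, and SIR3 (YLR442C) and SIR4 (YDR227W) rose by 0.42 ± 0.14 and 0.34 ± 0.09. SIR3 was not called against wild-type replicate 1 (0.13). HMRA2 (YCR096C) rose by 0.74 ± 0.18, but it shares its sequence with the expressed mating type locus of an a cell, so it does not read the silent copy alone.

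Set against K42L, where leucine, a hydrophobic residue, also removes the charge, K42Q had 23.0% of genes higher and 11.9% lower. These arrays were all of the lower background. With 1 array left out at a time 661 to 901 genes were higher and 282 to 368 lower, of 1253 and 647 in all. The general stress list had 52 of 56 higher and 0 lower (median 1.74), and the dimmest bin a median of 0.73, with 254 genes higher and 1 lower. The largest increases were in TMA10 (646 and 473 in K42Q, against 47.5 and 51.3 in K42L, a difference of 3.48 ± 0.24), PHO84, DDR2, HSP12 and EGO4. PHO84 had 689.9 and 655 in K42Q, against 70.8 and 65.6 in K42L. DDR2 had 734 and 609.6 in K42Q, against 59.6 and 91.4 in K42L. YKR015C, of unknown function, had 9.9 and 11.6 in K42Q, against 0.5 and 2.8 in K42L, where it did not pass the background. The largest decreases were in HIS3, DAN1 (-1.52 ± 0.21), RPS22B (-1.19 ± 0.10), COS8 (-1.17 ± 0.18), ARN2 (-1.17 ± 0.12) and DBP2 (-1.13 ± 0.08). HIS3 had 1852 and 326 in K42Q, against 2906 and 2632 in K42L, so its place among them rests on K42Q replicate 2. PHO84 in K42L stood near the low value of wild-type replicate 1.

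Set against K42A, whose arrays had the other background level, K42Q had 7.10% of genes higher and 9.29% lower. Substitution and background level cannot be told apart in these values. With 1 array left out at a time 43 to 170 genes were higher and 45 to 221 lower, of 387 and 506 in all. The general stress list had 18 of 56 higher and 4 lower (median 0.27), and the dimmest bin a median of -0.23, with 14 genes higher and 37 lower. The largest increases were in CTR3, CTR1, MTD1 (1.55 ± 0.27), CEM1 (YER061C), for a mitochondrial fatty acid enzyme, and, by the same conditions, PUF3 (YLL013C) and YOR316C-A. The last 2 did not pass the background in K42A, so no size is given for them. CTR3 had 964 and 1010.4 in K42Q, against 208 and 73.6 in K42A. CTR1 had 679.7 and 682 in K42Q, against 158 and 97.7 in K42A. CEM1 had 65.5 and 77.5 in K42Q, against 24.8 and 23.5 in K42A. For CTR3, CTR1, MTD1 and CEM1 the wild-type arrays of the K42A background also stood below wild-type replicate 1. The largest decreases were in DAN1, TIR4, SPG1 (YGR236C), YBR284W, PAU21 and SPO19 (YPL130W). DAN1 had 474 and 306 in K42Q, against 1322 and 1378 in K42A. TIR4 had 327 and 300.2 in K42Q, against 1081 and 979 in K42A. YBR284W had 93.4 and 88.3 in K42Q, against 218 and 302 in K42A. YBR284W was higher than wild type (1.35 ± 0.15) and yet below K42A.

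The genes lower than in K42A were unevenly spread over the chromosomes. Of 112 genes of chromosome III that were not dim, 57 were lower in K42Q than in K42A, or 50.9%, and 3 higher (median -0.33). Chromosome II had 63 of 301 lower (median -0.16), while all genes had 9.29%. The chromosome III genes had median log2 signals, relative to the mean of wild type, of 0.04 and 0.05 in K42Q and 0.36 and 0.24 in K42A, so K42Q stood near wild type and the K42A arrays apart. For chromosome X the values were 0.10 and 0.03 in K42Q and 0.10 and 0.17 in K42A. Chromosome I had 9 of 67 lower (median -0.19), with medians of 0.05 and 0.08 in K42Q and 0.15 and 0.09 in K42A. Differences of single genes between K42Q and K42A on these chromosomes stand beside such shifts of the chromosome median, whose source was not tested.

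**Figure D5:**
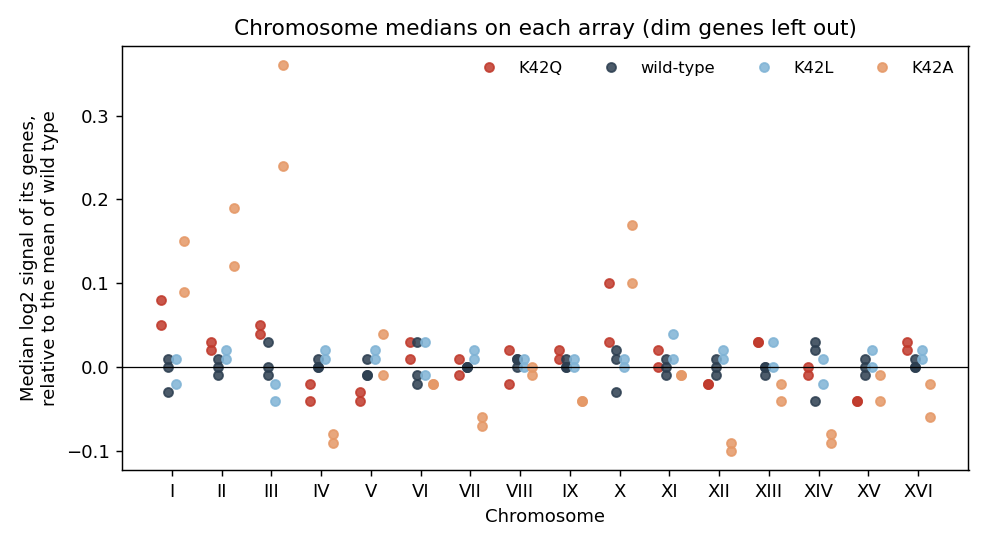
Median log2 signal of the genes of each chromosome, relative to the mean of the 3 wild-type arrays, on each array (dim genes left out). On chromosome III the K42Q arrays lie at 0.04 and 0.05 and the K42A arrays at 0.36 and 0.24.

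Of the remaining genes with the largest decreases, QDR2 (YIL121W), for a drug and potassium exporter, had 154 and 164 in K42Q, against 309, 454 and 417 in wild type, and YAR066W had 140.5 and 126 in K42Q, against 195, 467 and 463 in wild type, with wild-type replicate 1 nearest to K42Q. The dim genes YHK8 (YHR048W), for a presumed transporter, and CIN5 (YOR028C), for a transcription factor of the AP-1 family, fell by 0.94 ± 0.09 and 0.71 ± 0.12. CIN5 had 36 and 39.2 in K42Q, against 59.5, 69.1 and 56.2 in wild type. YMR230W-A had 43.1 and 29.5 in K42Q, against 62.1, 74.3 and 61.1 in wild type. Both K42Q arrays lay below every wild-type array in each of these, as the rule that named them requires.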

How the data were processed

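Total RNA of 9 cultures, 2 each of K42Q, K42L and K42A and 3 of wild type, was amplified in 1 round, labelled with biotin and hybridised to 1-colour Affymetrix yeast arrays, per the labels' protocols. The authors deposited intensity values, 1 signal per probe set and array on a linear scale, and GCOS 1.4 and MAS5 are named for them per the submitters' processing notes. Their roles and a genome build are not stated in the labels. Each array's trimmed mean, with 2% left out on each side, was 150.1.

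Of 10928 probe sets, 5498 were assigned to 1 S. cerevisiae gene in the platform annotation, which can be old, 1746 to a gene of another organism, 3470 to none, 1 to several, and 213 were controls. Symbols were updated through RefSeq (assembly R64), and the brightest probe set of a gene was kept, leaving 5449 genes. Of 98352 values, 126 were 0 and were set to 0.1, the smallest positive value, before log2. limma 3.58.1 in R 4.3.3 (lmFit with 1 mean for each group, all 9 arrays together, eBayes with an intensity trend, two-sided, Benjamini-Hochberg adjusted over all genes) gave changes, SE and adjusted p, and was tested on simulated data. Figures used matplotlib 3.10.9 in Python 3.11.15. The background was the 95th percentile of probe sets for other yeast species, and a gene above it on no array of the lower group has its fold as a bound. The number of arrays limits the precision. The alternatives are other scalings, filters, variance models, reference arrays and single arrays left out. The fits against wild-type replicate 1 and with spike-in scaling used the arrays of lower background only.

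The groups compared, gene lists and tests were chosen with earlier results of these data known. Genes were named by rule: called, not overlapping between groups and above background in the higher group, the 12 largest changes each way among genes at or over the 25th percentile of signal (8 among dim genes), 3 per list, histone and mating type genes, and 6 each way against K42L and K42A. Some genes that met the rule are given by their list's count only, and 1 is not reported here. Other genes named, such as those that complete a small count, regulators of meiosis, subunits of the G protein, SIW14 and YNL018C, were chosen after their values were seen. Sequences were not used here.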

Additional observations from a re-analysis of the deposited data

How the results depend on the processing

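Against wild type, 873 genes were higher with dim genes left out, 938 after quantile normalization and 2443 after spike-in scaling, and 1238, 1295 and 374 were lower after quantile normalization, median centring and spike-in scaling. Leaving out 1 array at a time gave 884 to 1948 higher and 417 to 1201 lower. Against K42L, 682 were higher with dim genes left out and 770 after quantile normalization (661 to 901 without single arrays), and 1033 were lower after median centring and 1057 with the background level as a block (282 to 368 without single arrays). Against K42A, 689 were higher after quantile normalization, and single arrays left out gave 43 to 170 higher and 45 to 221 lower. The median of the dimmest of the 10 bins turned to -0.04 after quantile normalization, and was 0.57 after median centring, 0.03 after cyclic loess, 0.95 after spike-in scaling, 0.32 with 16 added before the logarithm, 0.77 with the background level as a block, 0.77 against wild-type replicate 1 and 0.59 to 0.79 without single arrays. Its higher genes numbered 87 after quantile normalization, 102 after cyclic loess and 146 to 286 without single arrays. The median of the outermost genes was 0.35 with genes at background left out, 0.10, 0.21, 0.12 and 0.58 after the 4 scalings in the order above, 0.21 with 16 added, 0.40 with the background block and against wild-type replicate 1, and 0.26 to 0.46 without single arrays, with 72 to 112 genes higher. The quantile and loess results follow from their construction, which removes a trend with level. The background block draws on wild-type replicate 1 alone on its low side, and spike-in scaling uses that wild-type array only, so neither is a separate check. The causes of the other shifts were not tested. Of 3662 values of the 197 named genes under alternatives, 3360 kept the call or its absence (25 of them, all of genes not called, turned sign), 243 lost the call, 48 gained it and 11, called on at least 1 side, reversed. Calls lost without single arrays numbered 37 and 25 for the K42Q arrays and 2, 13 and 14 for the wild-type arrays. Reversed were MFA1 (-0.31 with the background block and -0.31 against wild-type replicate 1), PHO84 (-0.25 without wild-type replicate 1, the lowest of a range up to 1.92 without single arrays), RPT5 (0.06) and SIW14 (0.36) after spike-in scaling, SMK1 (-0.37 quantile, -0.12 loess), SPS4 (-0.07 quantile), WHI5 (-0.13 quantile, -0.08 loess) and YGP1 (-0.23 with the background block). Whether the replicate numbers pair the arrays cannot be told from these values. Deviations of same-numbered K42Q and wild-type arrays correlated at -0.24 and -0.28 over 4087 genes. With 2 K42Q arrays their deviations mirror each other, so these are not separate values. With the number as a replicate block the calls were 1197 higher and 536 lower against wild type, 1094 and 522 against K42L, and 273 and 360 against K42A. With the K42Q numbers crossed, a setting chosen after seeing the data, they were 1283 and 661 against K42L and 460 and 587 against K42A. Promoter motifs were not analysed here. With 2 K42Q arrays, small changes near the threshold are uncertain, and genes near background have the least precise values.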
